A study of Mus musculus with 8 samples.

Results

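The genes described here are 10 genes of MHC class I antigen presentation and the immunoproteasome, found by gene symbol among the 55487 genes of the deposited table: H2-K1, H2-D1, B2m, Tap1, Tap2, Tapbp, Psmb8, Psmb9, Psmb10 and Nlrc5. All 10 reached a mean of 10 normalized counts and were among the 16352 genes tested. Bulk RNA sequencing of ileum gave 4 libraries from Gsdme+/+ mice (WT) and 4 from Gsdme-/- mice (Gsdme_KO), and every mouse had received irinotecan, a topoisomerase I inhibitor that injures the intestine. The product of Gsdme, gasdermin E, forms pores in membranes once a caspase has cut it, and the comparison addresses how ileal expression differs between the genotypes under treatment. Untreated mice were not analysed here, so no value below measures a response to irinotecan. The sources used here do not give the dose, the time after dosing, or the strain, age and sex of the mice. The deposited columns are named WT3, WT5, WT7 and WT8 for 1 genotype and KO4, KO5, KO7 and KO8 for the other, and these names are kept below.

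MHC class I molecules show peptides from inside a cell to CD8 T cells and natural killer cells. A class I complex is a heavy chain, such as H2-K1 or H2-D1, bound to beta-2-microglobulin and to a peptide that the proteasome has cut, the TAP transporter has moved into the endoplasmic reticulum and tapasin has helped to load. Nearly all nucleated cells, the intestinal epithelium included, make class I, leukocytes make much of it, and interferon gamma is a textbook inducer of its genes and of the immunoproteasome, in which 3 catalytic subunits take the places of the constitutive ones.

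The libraries held 15617407 to 23437343 reads in genes. Gsdme itself was at 3376, 2169, 3164 and 2696 normalized counts in WT3, WT5, WT7 and WT8, and at 113, 187, 634 and 464 in KO4, KO5, KO7 and KO8. The Gsdme_KO mean was 12.3% of the WT mean, a log2 difference of -3.32 with no overlap (exact permutation test, two-sided, p = 0.0286, the smallest that 4 against 4 libraries allow). In the tests across all genes, Gsdme itself was called by DESeq2 (adjusted p = 2.3e-07) but not by limma (adjusted p = 0.786) or edgeR (adjusted p = 0.812), so the limma test used below did not call the targeted gene either. The ileal transcripts Fabp6, a bile acid binding protein, and Slc10a2, the apical bile acid transporter, were abundant in every library, at 14739 to 72985 and 7983 to 25319 normalized counts. In KO4 and KO5, but not in KO7 and KO8, the WT range was left by the summed markers of leukocytes and of mature enterocytes. The values of these markers are given below. The results on the 10 genes, the ratios and the gene lists are also given without KO4 and KO5.

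None of the 10 genes differed between genotypes in the test across all genes (limma adjusted p = 0.849 for 9 of them and 0.875 for Tapbp). In the same test 0.00612% of the tested genes were called higher and 0.0% lower in Gsdme_KO, the 1 call being the immunoglobulin segment Igkv10-96 (limma adjusted p = 0.0237), which was at 166 to 280 normalized counts in WT and 792 to 1054 in Gsdme_KO. All 10 had a positive log2 fold change, against 50.6% of all tested genes, and the median was 0.46 against 0.00. The library KO4 was the highest of the 8 for every one of the 10 genes, against 25.6% of all tested genes, and KO5 was next in 7 of them, an order that 11.4% of tested genes had. Without KO4 and KO5 the log2 fold change was positive for 9 of 10, against 52.0% of tested genes, and the median was 0.14.

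**Figure D1:**
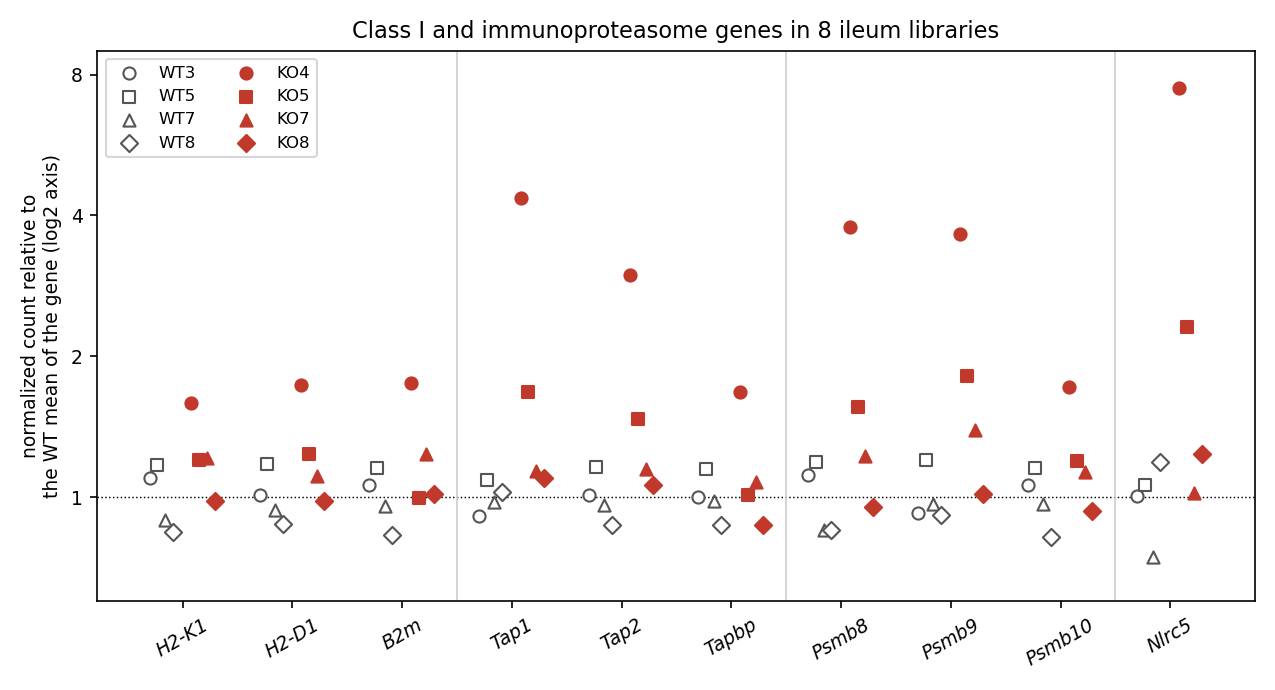
Normalized count of each gene in each library divided by the WT mean of that gene (log2 axis; open symbols WT, filled symbols Gsdme_KO, 1 symbol per library). KO4 is highest for all 10 genes, from 1.59 times the WT mean for H2-K1 to 7.50 times for Nlrc5, while KO7 and KO8 lie between 0.873 and 1.39 times.

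H2-K1 and H2-D1 encode the classical class I heavy chains, and both lie in the H2 complex on chromosome 17 (GRCm38). H2-K1 (ENSMUSG00000061232, 17:33996017-34000347, minus strand) held 27522, 29344, 22418 and 21119 normalized counts in WT3, WT5, WT7 and WT8, and 39884, 30075, 30401 and 24595 in KO4, KO5, KO7 and KO8. KO4, KO5 and KO7 were above every WT library, and KO8 was inside the WT range. The means were 25101 ± 3955 for WT and 31239 ± 6349 for Gsdme_KO (SD, n = 4 each), and the log2 fold change was 0.31 (SE 0.18, 95% interval -0.10 to 0.72, limma adjusted p = 0.849).

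H2-D1 (ENSMUSG00000073411, 17:35262730-35267499, plus strand) held 25264, 29440, 23395 and 21871 normalized counts in the WT libraries and 43416, 30823, 27742 and 24492 in the Gsdme_KO libraries, in the same order of libraries. Here KO4 and KO5 were above every WT library, and KO7 and KO8 were inside the WT range. The means were 24992 ± 3274 and 31618 ± 8279 (SD, n = 4 each), with a log2 fold change of 0.31 (SE 0.19, 95% interval -0.12 to 0.75, limma adjusted p = 0.849). Class I heavy chain genes are close in sequence to each other, and the sources used here do not say how reads that match several of them were counted, so the split of reads between H2-K1, H2-D1 and their relatives is uncertain.

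B2m (ENSMUSG00000060802, 2:122147686-122153083, plus strand) encodes beta-2-microglobulin, the light chain that every class I heavy chain needs to reach the cell surface, and it has no close copy. Its libraries held 23584, 25622, 21287 and 18391 normalized counts in the WT libraries and 38913, 22147, 27424 and 22542 in the Gsdme_KO libraries. KO4 and KO7 were above every WT library, while KO5 fell among the WT values, so KO5 did not follow KO4 for this gene. B2m had means of 22221 ± 3107 and 27756 ± 7815 (SD, n = 4 each) and a log2 fold change of 0.29 (SE 0.20, interval -0.16 to 0.75 at 95%, limma adjusted p = 0.849).

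The 3 chains thus shared a fold change near 0.3 on the log2 scale and a KO4 value of 1.59 to 1.75 times the WT mean. Without KO4 the log2 fold changes were 0.18 for H2-K1, 0.15 for H2-D1 and 0.12 for B2m, and without KO4 and KO5 they were 0.14, 0.07 and 0.17. In bulk tissue, more cells of a type that makes a transcript and more of that transcript per cell cannot be told apart, which holds for every gene described here.

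The promoters of these 3 genes are shown because they hold the elements by which class I genes are classically described: an NF-kB-type element, an interferon-response element bound by IRF proteins, and an X2 and Y box, the latter an inverted CCAAT box. RefSeq (GRCm38.p6) gave a promoter for 8 of the 10 genes, all but Tap2 and Nlrc5, and the 250 bases before each RefSeq start were searched on both strands. The RefSeq start of H2-D1, 35263094, lies 364 bases after the GENCODE start, so the H2-D1 stretches shown lie before the former and inside the gene span given above. The RefSeq starts of Tapbp, Psmb8 and Psmb9 lie 3579, 474 and 434 bases after their GENCODE starts. The bases searched for these genes thus also lie inside the gene spans given below. Capitals mark, in order, the NF-kB-type element, the IRF core, TGACG of the X2 box and ATTGG of the Y box. The 121 bases before the H2-K1 start lie on the minus strand at chr17:34000348-34000468:
H2-K1: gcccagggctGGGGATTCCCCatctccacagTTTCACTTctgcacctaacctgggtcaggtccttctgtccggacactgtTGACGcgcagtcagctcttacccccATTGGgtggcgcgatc

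The NF-kB-type and IRF stretch was nearly the same in both heavy chain genes, with 29 of 30 bases identical, and B2m held an IRF core without the NF-kB-type element. In the lines that follow, capitals mark the NF-kB-type element and the IRF core. The positions are chr17:34000429-34000458 (minus strand) for H2-K1, chr17:35262923-35262952 (plus) for H2-D1 and chr2:122147539-122147568 (plus) for B2m.
H2-K1: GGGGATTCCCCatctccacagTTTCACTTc
H2-D1: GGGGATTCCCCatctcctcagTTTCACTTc
B2m: taagaacatgaAACTGAAAatgggaaagtc

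All 3 genes also held TGACG and ATTGG with 20 bases between them, on the strand of the gene. In the next lines capitals mark these words, at chr17:34000359-34000388 (minus) for H2-K1, chr17:35262993-35263022 (plus) for H2-D1 and chr2:122147609-122147638 (plus) for B2m.
H2-K1: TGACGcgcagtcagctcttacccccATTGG
H2-D1: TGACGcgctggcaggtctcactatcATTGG
B2m: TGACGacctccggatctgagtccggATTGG

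H2-K1 and H2-D1 were identical at 23 of these 30 positions, H2-K1 and B2m at 13, and H2-D1 and B2m at 12. This arrangement was looked for after the sequences had been seen, and 30 of 32851 RefSeq promoters (0.0913%) held it, under 26 gene symbols that included H2-M3, another class I gene. The single words were more frequent: the NF-kB-type element, searched as GGGA, any base, T, any base and CCC, was in 0.944% of promoters, AANNGAAA, the IRF core, in 21.3%, TGACG in 17.8% and CCAAT in 33.8%. Among the other promoters, TGACG and CCAAT were both found between the RefSeq starts of Tap1 and Psmb9, where the same bases were read once for each gene, CCAAT alone for Tapbp, and TTCNNNGAA, the core of the STAT-binding GAS element, for Psmb8, a word in 7.02% of promoters. None of these words was found for Psmb10. A match describes letters in this window and is not evidence that a factor binds there.

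Tap1 and Tap2 encode the partner chains of the TAP peptide transporter. Tap1 (ENSMUSG00000037321, 17:34187553-34197225, plus strand) held 1258, 1505, 1350 and 1415 normalized counts in WT3, WT5, WT7 and WT8, and 6037, 2323, 1569 and 1518 in KO4, KO5, KO7 and KO8. It was the 1 gene of the 10 in which all 4 Gsdme_KO libraries were above all WT libraries, an order that 1.31% of tested genes had, and KO8 was above the highest WT library, WT5, by a small margin. Tap1 had means of 1382 ± 104 for WT and 2862 ± 2149 for Gsdme_KO (SD, n = 4 each), a log2 fold change of 0.80 (SE 0.39, 95% interval -0.09 to 1.69) and a limma adjusted p of 0.849.

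Tap2 (ENSMUSG00000024339, 17:34203527-34216321, plus strand) held 1123, 1293, 1072 and 971 normalized counts in the WT libraries and 3332, 1636, 1283 and 1185 in the Gsdme_KO libraries. KO4 and KO5 were above every WT library, and KO7 and KO8 were below WT5 and above the other WT libraries. The means were 1115 ± 135 and 1859 ± 1001 (SD, n = 4 each), and the log2 fold change was 0.61 (SE 0.30, 95% interval -0.06 to 1.29, limma adjusted p = 0.849). KO4 held 4.37 times the WT mean of Tap1 and 2.99 times that of Tap2, so the chains of the transporter differed from WT by unequal factors in this library.

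Tapbp (ENSMUSG00000024308, 17:33915899-33929292, plus strand) encodes tapasin, which bridges the transporter and the empty class I molecule. Its libraries held 6264, 7173, 6127 and 5455 normalized counts in the WT libraries and 10496, 6324, 6732 and 5461 in the Gsdme_KO libraries, and only KO4 was outside the WT range. The means were 6254 ± 707 and 7253 ± 2226 (SD, n = 4 each), the log2 fold change was 0.18 (SE 0.19, 95% interval -0.26 to 0.61) and the limma adjusted p was 0.875. Tapbp was the gene whose direction rested on KO4, since its log2 fold change was -0.018 without KO4 and -0.038 without KO4 and KO5. Over the same settings Tap1 was at 0.36 and 0.16, and Tap2 at 0.29 and 0.15.

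Psmb8, Psmb9 and Psmb10 encode the catalytic subunits of the immunoproteasome, which replace Psmb5, Psmb6 and Psmb7. Psmb8 (ENSMUSG00000024338, 17:34197721-34201454, plus strand) held 1566, 1673, 1194 and 1196 normalized counts in the WT libraries and 5313, 2190, 1720 and 1342 in the Gsdme_KO libraries. KO4, KO5 and KO7 were above every WT library, KO7 by a small margin, and KO8 was inside the WT range. Psmb8 had means of 1407 ± 249 and 2641 ± 1815 (SD, n = 4 each) and a log2 fold change of 0.71 (SE 0.38, 95% interval -0.15 to 1.57; adjusted p = 0.849 by limma).

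Psmb9 (ENSMUSG00000096727, 17:34181987-34187764, minus strand) held 598, 776, 625 and 593 normalized counts in the WT libraries and 2363, 1177, 900 and 659 in the Gsdme_KO libraries. It had the same order of libraries in Gsdme_KO as Psmb8, with KO4, KO5 and KO7 above every WT library and KO8 between WT7 and WT5. The means were 648 ± 86.6 and 1275 ± 756 (SD, n = 4 each), and the log2 fold change was 0.81 (SE 0.34, 95% interval 0.04 to 1.58). By limma, the adjusted p of Psmb9 was 0.849 and its unadjusted p 0.0406, the 1 value of the 10 genes under 0.05, against 2.61% of tested genes under 0.05 in this direction. Psmb9 lies beside Tap1 on the opposite strand. By RefSeq their starts are 226 bases apart with no overlap, whereas in the GENCODE M21 models, which reach further, the genes share 212 exon bases. The sources used here do not say whether the counting used strand, so reads from these bases cannot be assigned to 1 of the 2 genes.

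Psmb10 (ENSMUSG00000031897, 8:105935735-105938444, minus strand) held 2335, 2539, 2124 and 1813 normalized counts in the WT libraries and 3794, 2631, 2487 and 2054 in the Gsdme_KO libraries. KO4 was clearly above the WT libraries and KO5 just above the highest of them, with the other two inside the WT range. The means were 2203 ± 310 and 2741 ± 743 (SD, n = 4 each), and the log2 fold change was 0.29 (SE 0.19, 95% interval -0.13 to 0.71, limma adjusted p = 0.849). Without KO4 and KO5 the log2 fold changes were 0.13 for Psmb8, 0.26 for Psmb9 and 0.05 for Psmb10.

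Dividing each immunoproteasome subunit by the constitutive subunit it replaces removes the scaling of the library. The ratio of Psmb8 to Psmb5 was 1.29, 1.27, 1.05 and 1.09 in WT3, WT5, WT7 and WT8, and 3.54, 1.48, 1.38 and 1.10 in KO4, KO5, KO7 and KO8. The ratio of Psmb9 to Psmb6 was 0.354, 0.454, 0.374 and 0.393 in WT and 1.09, 0.667, 0.484 and 0.371 in Gsdme_KO. In both ratios KO4 was far above the rest, KO5 and KO7 were above every WT library and KO8 was inside the WT range. Psmb10 to Psmb7 gave 1.15, 1.40, 1.10 and 0.976 in WT and 1.69, 1.28, 1.34 and 1.11 in Gsdme_KO, with only KO4 above WT5.

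None of the 3 ratios differed between genotypes beyond the spread of the libraries. The mean ratios in WT and Gsdme_KO were 1.17 ± 0.123 and 1.87 ± 1.12 for Psmb8 to Psmb5, 0.394 ± 0.0433 and 0.652 ± 0.315 for Psmb9 to Psmb6, and 1.16 ± 0.178 and 1.36 ± 0.245 for Psmb10 to Psmb7 (SD, n = 4 each). The differences in mean log2 ratio were 0.52 (two-sided exact permutation p = 0.143), 0.62 (p = 0.114) and 0.22 (p = 0.257). Adjusted over the 3 ratios by the Benjamini-Hochberg method, these exact p-values were 0.214, 0.214 and 0.257. Leaving out KO4 and KO5 moved the log2 differences to 0.07, 0.11 and 0.09, each under the 0.52, 0.62 and 0.22 of all 8 libraries by more than 1.5 times.

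**Figure D2:**
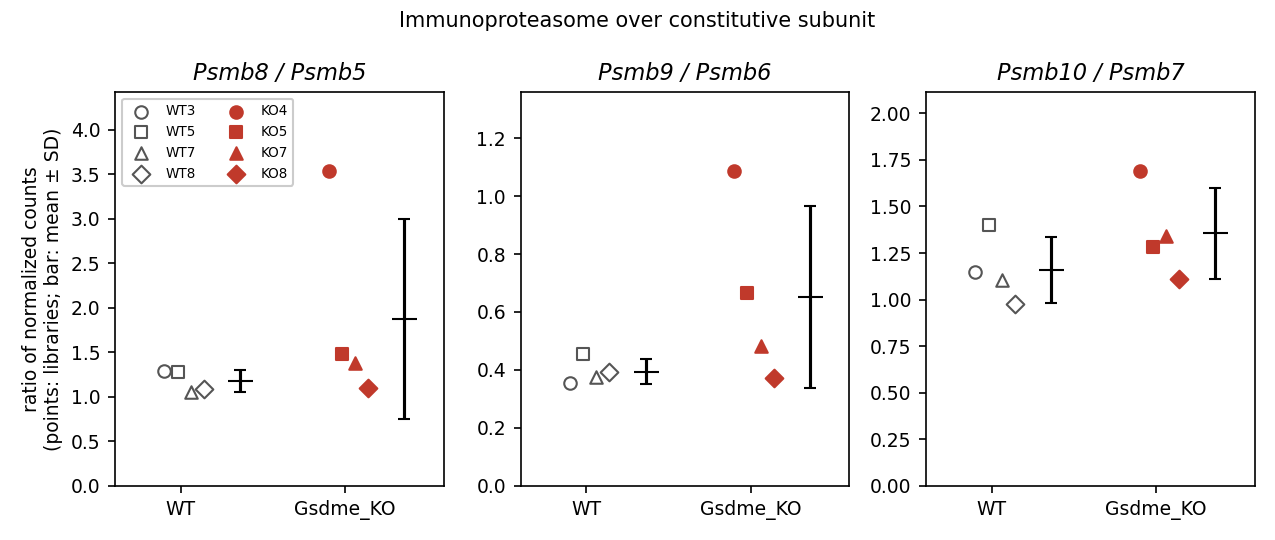
Ratio of normalized counts of each immunoproteasome subunit to the constitutive subunit it replaces (linear axes from 0; points are libraries, bars are the mean ± SD of 4 libraries). KO4 is the highest point in all 3 panels, at 3.54, 1.09 and 1.69, and KO8 lies inside the WT range in each.

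The constitutive subunits themselves varied less. Psmb5 held 1218, 1314, 1140 and 1097 normalized counts in the WT libraries and 1501, 1479, 1244 and 1223 in the Gsdme_KO libraries, a log2 fold change of 0.19 (limma adjusted p = 0.849). Psmb6 held 1693, 1711, 1673 and 1511 in WT and 2173, 1766, 1862 and 1779 in Gsdme_KO, a log2 fold change of 0.20 (limma adjusted p = 0.849). Every Gsdme_KO library was above every WT library for Psmb6, an order that 1.31% of tested genes had. Psmb7 was at 1811 to 2033 in WT and 1852 to 2242 in Gsdme_KO, with a log2 fold change of 0.07. The median of the 3 was 0.19 with all libraries, 0.13 without KO4 and 0.053 without KO4 and KO5, when 2 were positive and 1 negative.

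Nlrc5 (ENSMUSG00000074151, 8:94434356-94527272, plus strand) encodes the class I transactivator, a regulator that acts at the X1, X2 and Y boxes of class I promoters. It was the least abundant of the 10 genes, with 162 to 1956 reads per library. Normalized counts were 242, 255, 179 and 286 in WT and 1803, 556, 245 and 297 in Gsdme_KO. KO4 and KO5 were far above the WT libraries, KO8 was just above the highest of them and KO7 was inside their range. The means were 240 ± 44.7 and 725 ± 731 (SD, n = 4 each), so the SD in Gsdme_KO was as large as the mean. Nlrc5 had the largest log2 fold change of the 10, at 1.13 (SE 0.55, 95% interval -0.13 to 2.39, limma adjusted p = 0.849), and it was 0.53 without KO4 and 0.19 without KO4 and KO5.

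The 10 genes fell into a smaller and a larger level of difference in KO4. H2-K1, H2-D1, B2m, Tapbp and Psmb10 were at 1.59 to 1.75 times their WT mean, and Tap2, Psmb9, Psmb8, Tap1 and Nlrc5 at 2.99 to 7.50 times. These 5 larger values compare with 8.04% of all tested genes that were over 2-fold above their WT mean in KO4. In KO5 only Nlrc5 was over 2-fold above, at 2.32 times, and Psmb9, Tap1 and Psmb8 followed at 1.82, 1.68 and 1.56 times. KO7 and KO8 had no gene of the 10 over 2-fold above.

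Library by library, the median log2 difference of the 10 genes from their WT mean was 1.20, 0.44, 0.20 and 0.01 in KO4, KO5, KO7 and KO8, against 0.00 to 0.01 for all tested genes. The number of the 10 genes above every WT library was 10, 8, 5 and 2 in these libraries. Of all tested genes, 30.5%, 24.3%, 18.3% and 14.2% were above every WT library. Both KO4 and KO5 were above every WT library for 8 of the 10, against 15.9% of tested genes, the exceptions being B2m and Tapbp. The WT libraries also shared an order, with WT5 the highest in 9 genes and WT8 the lowest in 7. KO8 was the lowest Gsdme_KO library in 8 genes.

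**Figure D3:**
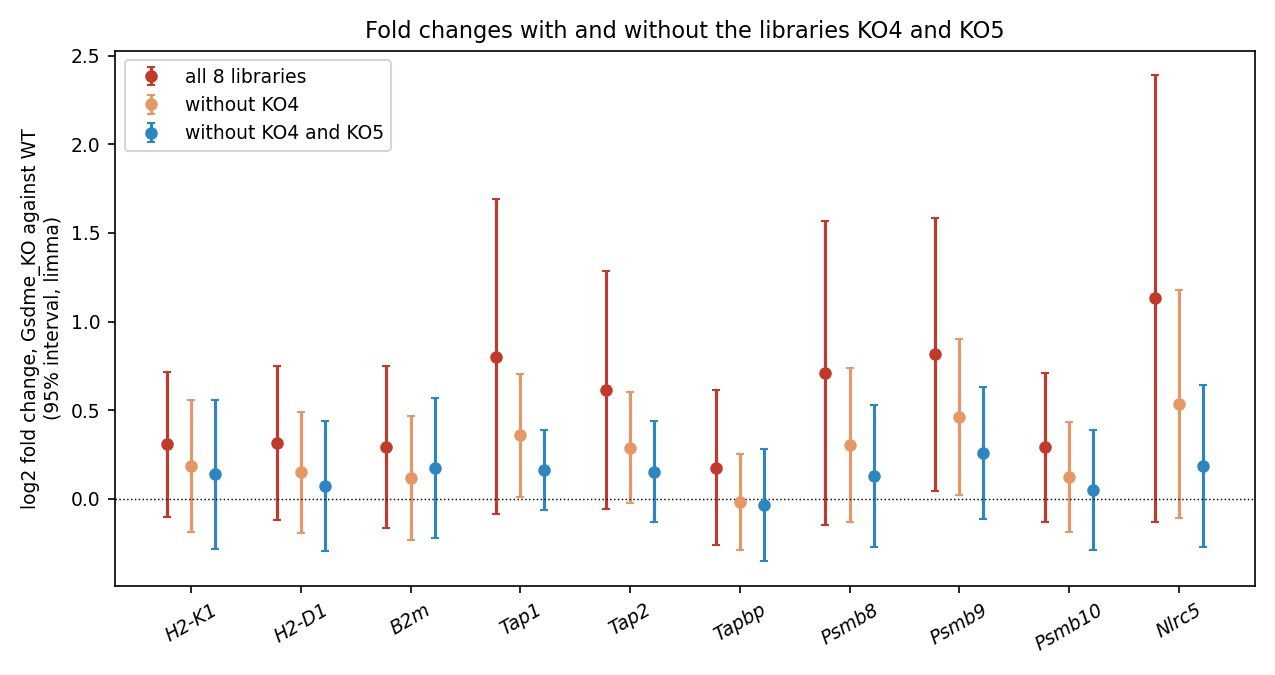
Log2 fold change of each gene, Gsdme_KO against WT, on the log2(normalized count + 1) scale, with all 8 libraries, without KO4 and without KO4 and KO5 (points are limma estimates, bars 95% intervals). The estimate for Nlrc5 goes from 1.13 to 0.53 and 0.19. Only the interval of Psmb9 excludes 0 with all 8 libraries, and only those of Tap1 and Psmb9 without KO4. All 10 intervals include 0 without KO4 and KO5.

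The count tests on the recovered reads also called none of the 10 genes, with 0.00612% of genes called higher and 0.0% lower by edgeR, and 0.0491% higher and 0.00614% lower by DESeq2. At an unadjusted p under 0.05, edgeR had 5 of the 10 genes, against 4.43% of tested genes in this direction, and DESeq2 had 5, against 5.15%. These were Tap1, Tap2, Psmb8, Psmb9 and Nlrc5 in both tests, which are also the 5 with the larger values in KO4. The lowest DESeq2 adjusted p was 0.314, for Nlrc5. With KO4 alone left out, the unadjusted limma p was 0.0447 for Tap1 and 0.0412 for Psmb9. In that setting 251 of 16279 tested genes were under 0.05 in this direction. Without KO4 and KO5, limma called 0 of the 10, with 0.0% of genes called higher and 0.00617% lower, and 0 of the 10 had an unadjusted limma p under 0.05, against 1.03% of tested genes in this direction.

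Levels between genes were compared as normalized counts per kilobase of exon. The length used joins all annotated exons of a gene, 3381 bases for Psmb8, which spans 3.734 kb, and 860 for B2m. It can exceed the length of the transcript expressed, so the order below depends on the annotation. B2m was the most abundant, at 25838 ± 3613 per kilobase in WT (SD, n = 4), followed by H2-D1 at 9691 ± 1269 and H2-K1 at 8543 ± 1346, whose ranges overlapped. Tapbp followed at 1724 ± 195 and Psmb10 at 1292 ± 182, and Psmb8 was lower at 416 ± 73.7. The transporter chains were close, Tap2 at 295 ± 35.6 and Tap1 at 252 ± 19.05 with overlapping ranges, then came Psmb9 at 177 ± 23.7 and Nlrc5 at 28.3 ± 5.26. Apart from H2-D1 with H2-K1 and Tap2 with Tap1, no neighbours in this order of the 10 genes overlapped in WT. In KO4, Tap1 was above Tap2, at 1103 and 881 per kilobase, and by a small margin in WT8 too, at 258 and 257.

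Beside the overlap of Tap1 and Psmb9, exons of other genes overlapped 4 of the 10. Psmb8 shared 498 exon bases and Tap2 165 with Gm20496, Tap2 shared 533 with Gm15821, Tapbp shared 904 with Gm19412, and Nlrc5 shared 78 with 9330175E14Rik, all on the opposite strand. Tapbp also shared 149 with Zbtb22 on its own strand. H2-K1, H2-D1, B2m and Psmb10 shared none.

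Several lists of cell type markers left the WT range in KO4 and KO5. The 6 pan-leukocyte markers, which include Ptprc (CD45), summed to 3038 to 4170 normalized counts in WT, and to 15373, 9785, 3065 and 3321 in KO4, KO5, KO7 and KO8, and all 6 had a positive log2 fold change. The 8 B cell markers, among them Cd79a of the B cell receptor, summed to 191 to 288 in WT, and to 9048, 5082, 275 and 207 in KO4, KO5, KO7 and KO8, with 8 of 8 positive. The 8 T cell markers summed to 343 to 516 in WT, and to 1361, 1058, 439 and 467 in KO4, KO5, KO7 and KO8, also with 8 of 8 positive. Thus KO4 and KO5, the libraries with the highest class I values for most genes, were also the libraries above the WT range for the summed leukocyte, B cell and T cell markers. Of the most abundant genes of these lists, Ptprc, Laptm5 and Lcp1 had log2 fold changes of 1.15, 0.67 and 0.78, Cd79a and Ms4a1 of 1.80 and 3.31, and Cd3g, Cd4 and Cd8a of 1.05, 0.37 and 0.81, none of them called. Of these lists' markers, Cr2 was at 0 in WT7 and Blk at 0 in KO7.

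Mature enterocyte markers were lower in the same libraries. Their 8 genes summed to 238275 to 461564 normalized counts in WT, and to 118985, 139529, 424079 and 322152 in KO4, KO5, KO7 and KO8, and all 8 had a negative log2 fold change with all libraries. General epithelial markers, Epcam among them, summed to 234542 to 288736 in WT and 241198 to 275544 in Gsdme_KO, with 2 of 8 positive. Macrophage and dendritic cell markers summed to 3968 to 4760 in WT, and to 5200, 4883, 4192 and 4240 in KO4, KO5, KO7 and KO8, with 7 of 8 positive and KO4 and KO5 above the WT range here too, and endothelial and stromal markers to 14335 to 24418 and 15277 to 22137, with 6 of 8 positive. The most abundant genes of these 4 lists had log2 fold changes of -1.07 for Anpep, -0.82 for Fabp2 and -0.31 for Apob, of -0.25, -0.22 and 0.02 for Epcam, Vil1 and Krt8, of 0.17, 0.31 and -0.72 for Csf1r, C1qa and Mertk, and of 0.06, 0.03 and 0.21 for Col1a1, Col1a2 and Dcn, again with none called. Without KO4 and KO5, positive and negative values numbered 1 and 5 for the pan-leukocyte list, 6 and 2 for T cells, 6 and 2 for mature enterocytes, 3 and 5 for epithelial, for macrophage and dendritic cell, and for endothelial and stromal markers, and 1 and 2 for the B cell genes that still passed the filter on low values. The part of these cell types in the class I values was not tested.

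**Figure D4:**
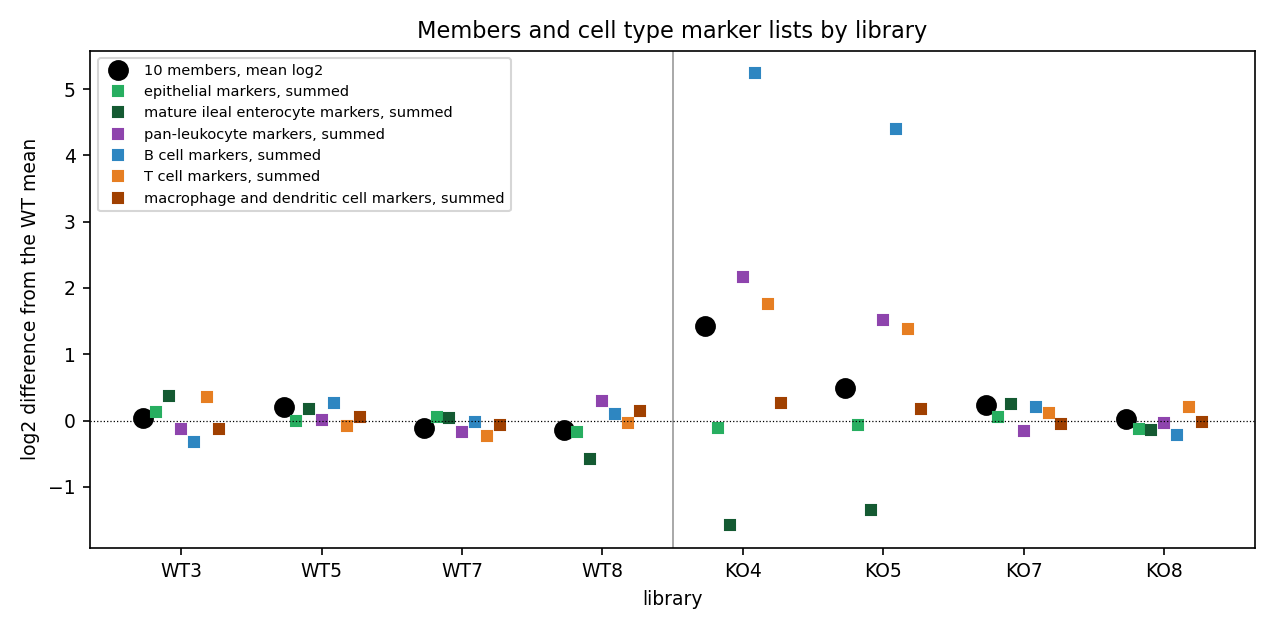
Log2 difference from the WT mean, by library, for the mean of the 10 genes (black circles) and the summed normalized counts of 6 marker lists (coloured squares). In KO4 and KO5 the 10 genes are at 1.43 and 0.49, B cell markers at 5.24 and 4.40, and mature enterocyte markers at -1.58 and -1.35.

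The other class I heavy chain genes of the H2 region had no called gene among 15 tested, with 11 positive and 4 negative log2 fold changes and a median of 0.35. The median was 0.22 without KO4 and 0.11 without KO4 and KO5, when 12 were positive and 3 negative. The 3 most abundant differed in direction. H2-T23, which encodes the nonclassical Qa-1 molecule, held 5169 to 6993 normalized counts in WT, and 10361, 6399, 7132 and 6006 in KO4, KO5, KO7 and KO8. H2-T3, which encodes the thymus leukemia antigen of intestinal epithelium, held 2997, 2932, 2149 and 1837 in WT, and 864, 1122, 2930 and 2199 in Gsdme_KO, so KO4 and KO5 were the lowest of the 8 libraries. H2-Q2 held 4062 to 7579 in WT, and 5490, 3623, 7509 and 5334 in Gsdme_KO. Neither fold change of H2-T3 (-0.62) nor of H2-Q2 (-0.10) passed the test (limma adjusted p = 0.849 and 0.947), and that of H2-T23 was 0.26 (limma adjusted p = 0.849).

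H2-Q6, H2-Q7 and H2-T10 of the same list are named because their unadjusted limma p was under 0.05, and they were chosen after their values were seen. H2-Q6 was at 387 to 586 normalized counts in the WT libraries and 2572, 1404, 626 and 580 in the Gsdme_KO libraries. H2-Q7, which encodes the nonclassical Qa-2 antigen, was at 254 to 399 in WT and 1712, 913, 397 and 372 in Gsdme_KO. H2-T10 was at 68.6 to 73.8 in WT and 274, 150, 82.8 and 86.7 in Gsdme_KO. Its Gsdme_KO libraries were all above the WT range, as in 1.31% of tested genes. In each of them KO4 was highest and KO5 next, the order also seen in Tap1 and Psmb9, and the limma adjusted p was 0.849. The same uncertainty about shared reads applies to all of these heavy chain genes.

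Class I-like molecules outside the H2 region, such as Fcgrt, the neonatal Fc receptor, had 6 positive and 1 negative log2 fold change among 7 tested, with a median of 0.23 and none called. Without KO4 the median was 0.093, and without KO4 and KO5 it was 0.10 with the same counts of signs. Fcgrt was the negative one, at 1416 to 2195 normalized counts in WT and 1298 to 2033 in Gsdme_KO. Hfe, a regulator of iron uptake, and Procr, the protein C receptor, had log2 fold changes of 0.05 and 0.11. The other factors of peptide loading and trimming split evenly, with 6 positive and 6 negative among 12, a median of -0.04 and none called. That split rested on KO4 and KO5, since without them 1 was positive and 11 were negative, with a median of -0.07, and the median was -0.10 without KO4 alone. Their abundant chaperones Calr, Pdia3 and Hspa5 had log2 fold changes of -0.15, -0.08 and 0.11. Calreticulin, encoded by Calr, was at 18571 to 21816 in WT and 20156, 15860, 17300 and 17308 in Gsdme_KO, so it did not share the order of the 10 genes. Canx of this list, named after its values were seen, was at 11563 to 12413 in WT and 9539, 8646, 11355 and 11256 in Gsdme_KO. All its Gsdme_KO libraries were thus below the WT range, an order whose share among all tested genes was not counted. Its log2 fold change was -0.26 (limma unadjusted p = 0.0470, adjusted p = 0.849), and 290 of 16352 tested genes were under 0.05 unadjusted in this direction.

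The rest of the proteasome had small, mostly positive values when all 8 libraries were used. Of 16 other 20S core and assembly genes, 15 were positive and 1 negative, with a median of 0.09, and KO4 was the highest library in 13. The most abundant were Psmb4 at 4431 in KO4 against 2947 to 3693 in WT, Pomp, the assembly chaperone of the core, at 3588 against 2334 to 2967, and Psma4 at 3342 against 2569 to 2706. Of 18 genes of the 19S regulator, which unfolds ubiquitinated substrates, 16 were positive and 2 negative, with a median of 0.08. Its most abundant genes Psmd2, Psmc1 and Psmc3 had log2 fold changes of 0.10, 0.05 and 0.14. Without KO4 and KO5 the 20S list had 12 positive and 4 negative values with a median of 0.044, and the 19S list 11 positive and 7 negative with a median of 0.0048. Without KO4 alone these medians were 0.037 and 0.012. None of these genes was called by limma.

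Among 4 proteasome activator genes, Psme1 and Psme2, which encode the interferon-inducible PA28 alpha and beta subunits, had KO4 highest. Psme1 held 3362, 3457, 3059 and 2729 normalized counts in the WT libraries and 5659, 3270, 3497 and 2837 in the Gsdme_KO libraries. Psme2 held 2550, 2721, 2494 and 2193 in WT and 4331, 2656, 2645 and 2459 in Gsdme_KO. KO4 alone was clearly outside the WT range in both, at 1.80 and 1.74 times the WT mean, close to the 1.72 times of Psmb10 in that library. Psme3, which encodes PA28 gamma of the nucleus, was at 2177 to 2350 in WT and 2021 to 2340 in Gsdme_KO. None of the 4 was called, and their median log2 fold change was 0.11, which leaving out KO4 took to -0.0037 and leaving out KO4 and KO5 to 0.0014.

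**Figure D5:**
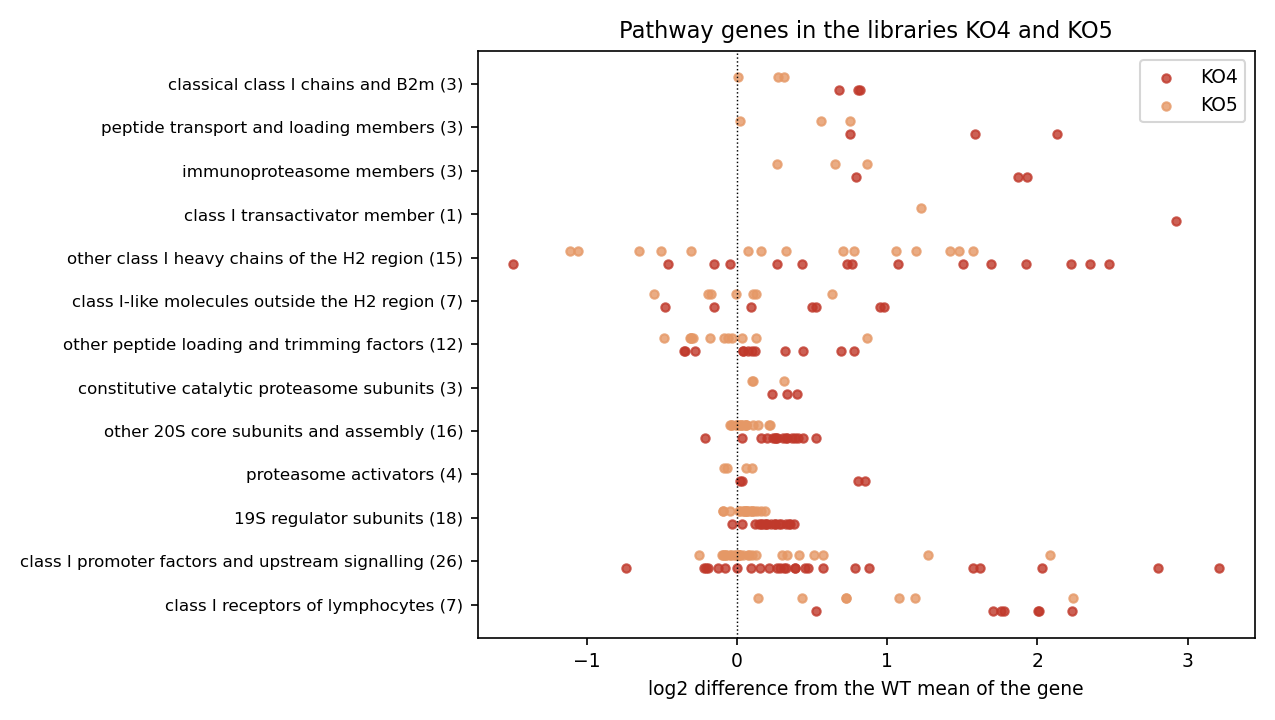
Log2 difference from the WT mean of each gene in KO4 (dark) and KO5 (light), for the 10 genes by role and for 9 lists of related genes (1 point per gene, number of tested genes in brackets). Nlrc5 is at 2.92 in KO4, and H2-T3, among other heavy chains, is at -1.49 in KO4 and -1.11 in KO5. The 10 genes are all to the right of 0 in both libraries, but in KO5 B2m at 0.0060 and Tapbp at 0.023 hardly differ from 0.

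Factors that act at class I promoters or signal to them had 16 positive and 10 negative log2 fold changes among 26 tested, a median of 0.05 and none called. The median was -0.016 without KO4. Irf1, an interferon-induced activator of class I and immunoproteasome genes, held 3083, 3315, 4122 and 3020 normalized counts in the WT libraries and 9964, 4799, 3275 and 3392 in the Gsdme_KO libraries. Irf1 was thus above the WT range in KO4 and KO5 only, and its log2 fold change was 0.52 with an SE of 0.33 (limma adjusted p = 0.849). Stat3 was at 3406 to 4550 in WT and 5379, 3904, 3872 and 3827 in Gsdme_KO. Ifngr1, the ligand-binding chain of the interferon gamma receptor, was at 4739 to 5042 in WT and 3909 to 4686 in Gsdme_KO. Its log2 fold change was -0.21 (limma adjusted p = 0.849). Every Gsdme_KO library was below the WT range for Ifngr1, an order whose share among all tested genes was not counted. Its unadjusted limma p was 0.0316, and 290 of 16352 tested genes were under 0.05 in this direction.

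Ciita, Socs1 and Ifng of this list are named after their values were seen. Ciita, the class II counterpart of Nlrc5, was at 113 to 234 normalized counts in the WT libraries and 1090, 660, 166 and 106 in the Gsdme_KO libraries. Socs1, a feedback inhibitor of interferon signalling, was at 56.3 to 164 in WT and 795, 207, 58.5 and 72.1 in Gsdme_KO. In Ciita and Socs1, KO4 was highest and KO5 next, as in Nlrc5, while KO7 and KO8 were within or near the WT range. Ifng, which encodes interferon gamma, was at 52.5 in KO4 and at 0 to 5.53 in the other 7 libraries, too low to be tested. Over the 26 tested genes of the list, KO4 was the highest library in 16, against 25.6% of all tested genes. It was the lowest in 3, as it was in 3986 of all 16352 tested genes. Among these 3, Ifngr2 was at 3275 to 4787 normalized counts in WT, and 2524, 4233, 4760 and 3997 in KO4, KO5, KO7 and KO8. Without KO4 and KO5 the list had 6 positive and 20 negative log2 fold changes.

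The receptors by which lymphocytes see class I were positive in 7 of 7 tested genes, with a median log2 fold change of 0.64, and none was called. Cd8a, the co-receptor of cytotoxic T cells, was at 58.4 to 117 normalized counts in the WT libraries and 266, 185, 90.2 and 94.0 in the Gsdme_KO libraries. Klrd1, which encodes CD94 of natural killer cells, was at 16.6 to 38.1 in WT and 107, 43.6, 37.8 and 49.3 in Gsdme_KO. Pirb, an inhibitory receptor of myeloid and B cells, was at 83.4 to 155 in WT and 361, 173, 102 and 112 in Gsdme_KO. In all 3, and in Cd8b1 and Klrb1c, KO4 and KO5 were above every WT library, as in 15.9% of tested genes. In Klrk1 only KO4 was above them, and in Cd160 neither library was. The median of this list was 0.39 without KO4, and without KO4 and KO5 it was 0.11, with 4 positive and 2 negative among the genes that still passed the filter.

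The mean centred profile of the 10 genes on the log2 scale was -0.24, -0.06, -0.38 and -0.41 in WT3, WT5, WT7 and WT8, and 1.16, 0.22, -0.04 and -0.25 in KO4, KO5, KO7 and KO8. Likeness to it was measured as the root mean square log2 difference over the 8 libraries, which had a median of 0.537 over all tested genes. Of the 10 genes, each of which is part of that mean, Tap2 was the closest to it at 0.0631, while Nlrc5, whose differences were larger, was at 0.555. Outside the 10, the most alike were Dennd6b at 0.110, Plekhg3 at 0.113, Ogfrl1 at 0.120, S100a16 at 0.123, Oasl1 at 0.132, the class I gene H2-T22 at 0.136, Abcg1 at 0.138 and Tinagl1 at 0.140. Oasl1, an interferon-induced gene, held 3285, 4111, 3037 and 2384 normalized counts in the WT libraries and 8758, 4039, 3331 and 3089 in the Gsdme_KO libraries. H2-T22, whose product is a ligand of some gamma delta T cells, held 1279, 1596, 1333 and 1340 in WT and 2911, 1733, 1492 and 1382 in Gsdme_KO. All 8 had KO4 as the highest library, as the choice by likeness makes likely, and none was called.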

How the data were processed

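Poly(A)-selected, strand-specific RNA libraries were made from ileum total RNA, per the labels' protocols. The build GRCm38 and the tools DESeq2, featureCounts, Subread, SAMtools and HISAT2 are named in the submitters' processing notes, with versions, annotation and strand option not given in the sources used here. Values are a normalized signal deposited by the authors in a single table, that is read counts divided by a size factor per library (called normalized counts here), and 100% of values came out as whole reads within a tolerance of 0.01, with size factors of 0.821 to 1.33. Column headers give the genotype but numbers other than those of the labels, so columns were tied to a genotype only. Each label names a separate mouse number, but nothing else says how the samples relate, so p-values measure the spread between these libraries.

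Genes were tested if their mean reached 10 normalized counts, with limma-trend (limma 3.58.1, R 4.3.3) on log2(normalized count + 1), all 8 libraries, no covariate, and a call needed a p under 0.05 after Benjamini-Hochberg adjustment. The added 1 understates fold changes of low genes. The step was tested on simulated data. Targeted-gene and ratio comparisons used two-sided exact permutation tests over 70 assignments. Alternatives were pseudocounts of 0.5 and 5, no filter, a minimum mean of 50, quantile normalization, TMM scaling, an adjusted p under 0.1, edgeR 4.0.16 and DESeq2 1.42.0 on recovered reads, each library left out, and KO4 and KO5 left out. Exon lengths and overlaps are from GENCODE M21, and promoters from RefSeq (GRCm38.p6).

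Named genes were the 10 genes, Gsdme, Psmb5 to Psmb7, any called gene, the called or else the 3 most abundant genes of each list, and the 8 most alike genes, leaving out gene models, pseudogenes and receptor segments from the last. Some results of genes under this rule are not reported here. The genes, lists and the choice to leave out KO4 and KO5 were made with earlier results of these data known. Of 185 list symbols, 3 had no row in the table.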

Additional observations from a re-analysis of the deposited data

Results flagged for a closer look

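For the 67 genes named by rule and the 3 ratios, 140 groups of 4 libraries were examined for a library far from the other 3, and 12 groups had one. Chance alone gives about 1 in 20 for independent groups, but these groups share the same 8 libraries. Some genes were also chosen by their profile over the libraries, so the count cannot be set against that rate. In Gsdme_KO, KO4 was the distant library in 8. These were Psmb4 at 4431 normalized counts (others 3448 to 3529), Pomp at 3588 (2557 to 2733), Psma4 at 3342 (2670 to 2767), Psme2 at 4331 (2459 to 2656), Stat3 at 5379 (3827 to 3904), Klrd1 at 107 (37.8 to 49.3), Dennd6b at 417 (161 to 195) and Oasl1 at 8758 (3089 to 4039), the last 2 being genes chosen for their likeness to the profile of the 10. In the same group Apob, a lipoprotein component of enterocytes, was highest in KO7 at 57519 (41748 to 43303). In WT the distant library was WT8 each time, for Psma4 at 2569 (2697 to 2706), Csf1r, a macrophage receptor, at 1069 (747 to 801), and Dcn, a stromal proteoglycan, at 6778 (4318 to 4588). The criterion used the gap to the nearest library as a share of the range of the 4, which was 0.830 to 0.950 in the flagged groups. None of the 10 class I and immunoproteasome genes met it in either genotype, although KO4 was the highest library for all 10.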

How the results depend on the processing

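None of the 10 genes was called under any of the 18 alternatives, and 9 or 10 had a positive log2 fold change in each. Tapbp was the exception in direction, at -0.018 without KO4, the lowest of a range up to 0.30 with 1 library left out, and -0.038 without KO4 and KO5. The number of genes called higher among all tested, 1 (Igkv10-96, an immunoglobulin segment), was 0 to 1 when 1 library was left out, 0 without KO4 and KO5 and 8 by DESeq2, and the number called lower, 0, was 1 without KO4 and KO5 and 1 by DESeq2. The Gsdme log2 difference was -3.71 to -2.88 with 1 library left out (exact permutation p = 0.0571, the smallest possible) and -2.37 without KO4 and KO5 (p = 0.133), since fewer libraries cannot reach the threshold. The log2 ratio differences ranged with 1 library left out from 0.16 to 0.73 for Psmb8 to Psmb5, 0.33 to 0.85 for Psmb9 to Psmb6 and 0.11 to 0.32 for Psmb10 to Psmb7, lowest without KO4. No paired analysis was possible because the numbers in the column headers are not those of the labels. With 4 libraries per genotype and KO4 far from the others, the 95% intervals of the fold changes reach up to 2.39 for Nlrc5, so a p over the threshold does not show that the genotypes were alike. The reads behind a value were at least 162 per library for Nlrc5 and at least 527 for the other 9 genes.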
